A study of Mus musculus and blank sample with 191 samples.

Results

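Kruppel-like factors are zinc finger transcription factors that bind GC-rich and CACCC elements, and 9 of them were followed in the mouse uterus: Klf9, Klf13, Klf10, Klf3, Klf2, Klf4, Klf5, Klf6 and Klf15. They were taken by symbol from a count table of 19962 targets, all 9 were in it, and all 9 were among the 14881 genes kept by the authors' detection filter. The tissue came from 6 mice heterozygous for the dominant-negative PV mutation of thyroid hormone receptor α1 (Thra1PV/+, here PV) and from 8 wild-type (WT) mice. PV mice were 2.4 to 6.3 months old and WT mice 4.0 to 9.0 months old. The mutation was carried in the germline, so it was present in every cell of the uterus. The study's methods describe matching mice at metestrus. Its results name this step for the laser-captured endometrium and describe the histological sections as from cycle-matched females. Its account of the spatial assay gives no cycle stage, so the stage of the mice used here was not known. RNA was counted with 1 probe per gene in tissue regions chosen by a pathologist from morphology and from cytokeratin and smooth muscle actin staining (GeoMx, a spatial assay in which probes are released from a region by light).

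Values are counts of the 95 regions of the first plate, summed for each mouse and compartment. They covered 60 epithelium regions (31 PV, 29 WT) and 35 stroma regions (21 PV, 14 WT), and 1 WT mouse (WT6) had no stroma region there. The study describes regions of mucosa, glands and stroma, but the labels give only epithelium and stroma, so epithelium may pool luminal and gland regions. The study reports fewer glands and squamous metaplasia in PV uteri. The part of this mix in the epithelial differences between genotypes was not tested. Single regions held 61690 to 3130397 counts. In all 60 epithelium regions the summed columnar epithelial markers exceeded the summed fibroblast markers, and in all 35 stroma regions the reverse held, whereas 40 of the 94 second-plate regions went against their label. In WT, Krt8 was 17.7-fold and Epcam 13.7-fold higher in epithelium, and Dcn 7.96-fold and Col1a1 5.95-fold higher in stroma. The second plate was used only as an alternative. PV2 was the thinnest mouse, with 1 region in each compartment. Levels are CPM (counts scaled to a common library total by TMM size factors), and since each gene had its own probe, a level is set against that of the same gene in other mice, never against another gene.

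Klf9 is a direct target of the thyroid hormone receptor in several tissues and a partner of the progesterone receptor in the uterus. The PV receptor does not bind hormone and acts as a constant repressor at genes of this kind. The family falls into groups by the partners its members recruit: Klf9, Klf10 and Klf13 bind the Sin3A corepressor, Klf3 binds the corepressor CtBP, and Klf2, Klf4, Klf5 and Klf6 act largely as activators. Klf15 is a metabolic regulator that glucocorticoids induce, and in the uterine epithelium it restrains estrogen-driven proliferation. The comparisons asked whether the relatives of Klf9 followed it, ran against it or stayed level in PV uteri.

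Klf9 lies on chromosome 19 (23141226 to 23168134, plus strand) and Klf15 on chromosome 6 (90462576 to 90475238, plus strand) in the GENCODE vM21 annotation of GRCm38. Their proximal promoters are shown because these were the 2 members with lower levels in PV epithelium. The windows are RefSeq promoters of GRCm38.p6, 300 bases from 250 before to 50 after the start, chr19:23140976-23141275 for Klf9 and chr6:90462326-90462625 for Klf15, both on the plus strand. Capitals mark matches on either strand to the CACCC box, to the GC box (GGGCGG), to the CCAAT box and to the nuclear receptor half-site (AGGTCA), and a pair of overlapping CCAAT matches on opposite strands forms 1 run of capitals in Klf9.
Klf9: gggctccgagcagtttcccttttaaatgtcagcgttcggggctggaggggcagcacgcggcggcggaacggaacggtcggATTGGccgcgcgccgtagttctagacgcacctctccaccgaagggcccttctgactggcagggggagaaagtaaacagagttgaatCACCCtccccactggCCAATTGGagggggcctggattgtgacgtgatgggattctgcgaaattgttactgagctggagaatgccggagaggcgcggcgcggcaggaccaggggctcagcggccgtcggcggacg
Klf15: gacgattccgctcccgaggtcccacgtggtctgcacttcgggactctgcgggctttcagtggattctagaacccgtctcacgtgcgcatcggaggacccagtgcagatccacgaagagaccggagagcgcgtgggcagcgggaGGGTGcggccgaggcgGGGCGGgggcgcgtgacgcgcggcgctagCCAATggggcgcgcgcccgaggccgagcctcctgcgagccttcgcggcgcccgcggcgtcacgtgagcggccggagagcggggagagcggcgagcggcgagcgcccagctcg

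The Klf9 window held 1 CACCC match, 3 CCAAT matches and no GGGCGG, and the Klf15 window held 1 match of each of these 3. Of 32851 RefSeq promoters of the same length, 57.5% held CACCC, 35.7% GGGCGG, 37.4% CCAAT and 16.3% the nuclear receptor half-site AGGTCA. No AGGTCA lay in the windows of the 7 members listed there, which concerns these letters in these bases only. The 7 windows had 63% to 76.7% G or C and 23 to 47 CpG dinucleotides, against medians of 52.7% and 7 over all promoters. Klf5 and Klf10 had no entry in the promoter table.

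In the uterine epithelium, Klf9 measured 14.0 CPM in PV6, 15.0 in PV2, 20.6 in PV1, 22.1 in PV5, 29.1 in PV3 and 32.3 in PV4. In the 8 WT mice it ran from 35.6 to 64.9 CPM with a median of 52.2. No PV mouse reached the lowest WT mouse, a separation in this direction that 10 of 14881 genes, 0.0672%, showed, Klf9 included. The fitted level was 2.13-fold lower in PV (log2 difference -1.09 ± 0.21 SE, 95% interval -1.55 to -0.64). The exact two-sided permutation test of mean log2 CPM gave p = 0.000333, the smallest that 3003 divisions of 6 and 8 mice allow. Across all genes edgeR's quasi-likelihood test gave Klf9 an adjusted p of 0.12, above the threshold of 0.05, while DESeq2 on the same sums gave 0.00987. The Klf9 sums rested on 1 to 216 counts in PV and 76 to 241 in WT, and the value of PV2 was 1 count.

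In the uterine stroma, Klf9 measured 30.5 CPM in PV2, 36.9 in PV3, 38.8 in PV6, 41.8 in PV5, 60.7 in PV1 and 125 in PV4. The 7 WT mice ran from 113 to 201 CPM with a median of 146. Of the PV mice, 5 lay below every WT mouse, and PV4 lay within the WT range. The fitted level was 2.49-fold lower in PV (log2 difference -1.31 ± 0.28 SE, 95% interval -1.94 to -0.69; exact permutation p = 0.00117, smallest possible 0.000583; edgeR adjusted p 0.579, DESeq2 adjusted p 0.0248). Without PV4 the log2 difference was -1.76 and the edgeR adjusted p 0.00588, the single gene of 14881 called in that fit. The 4 stroma regions of PV4 ran from 56.2 to 91.3 Q3-normalised counts (each region divided by its upper quartile), so its position did not rest on 1 region, and its epithelium was also the highest of the PV mice.

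**Figure D1:**
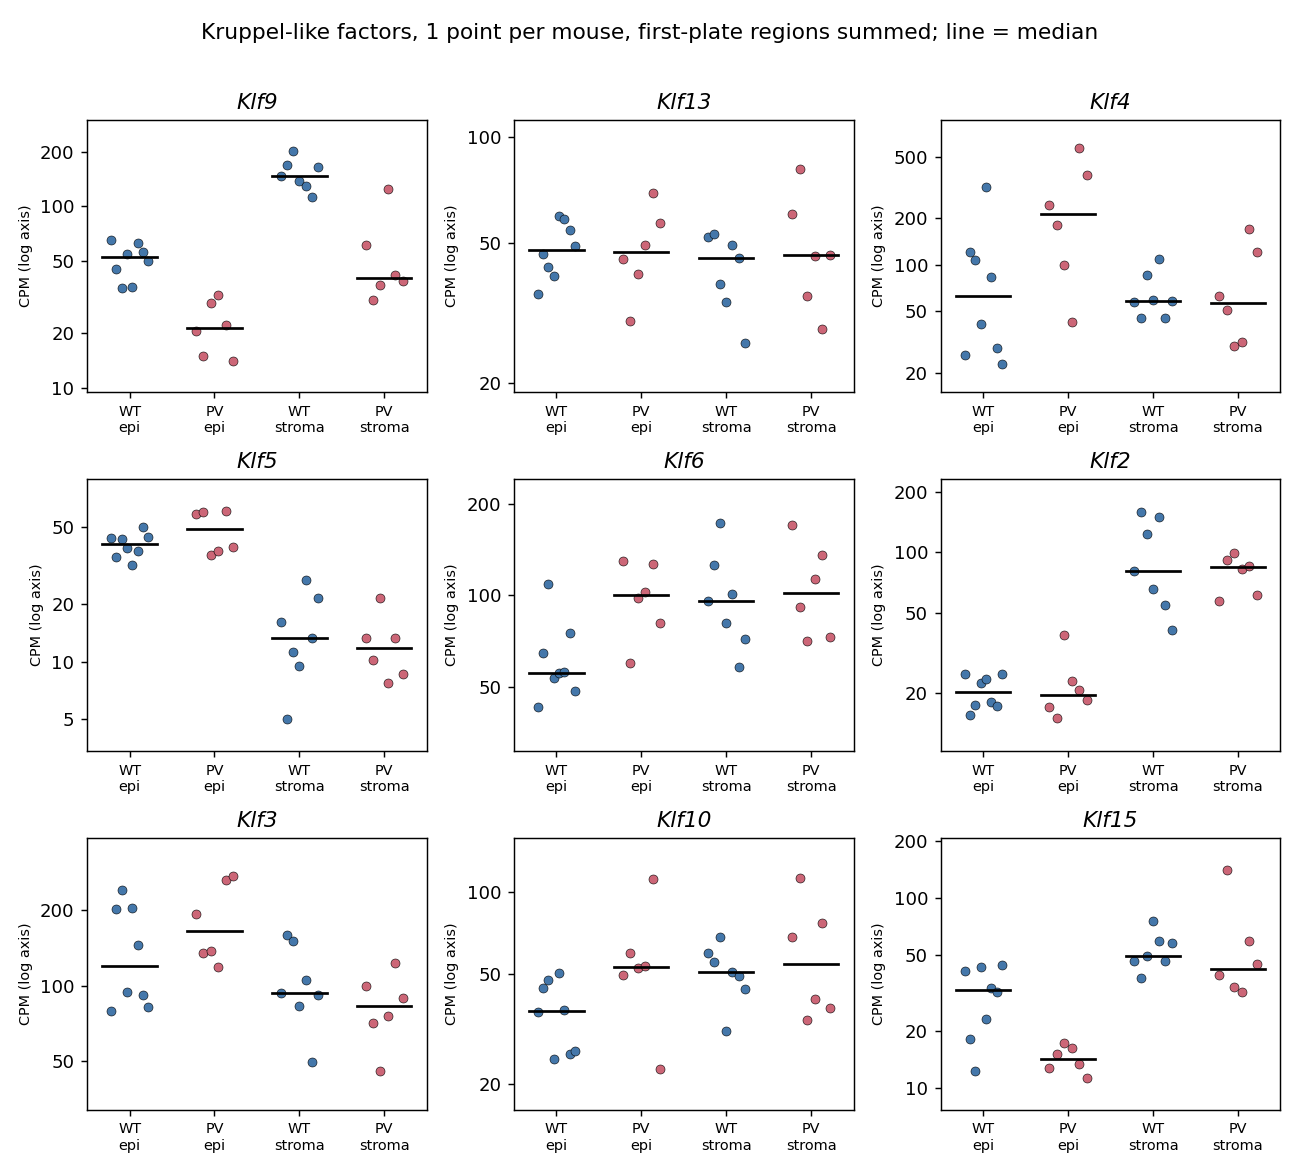
Level of each of the 9 Kruppel-like factors in CPM (log axis) in WT and PV epithelium (epi) and stroma, with 1 point per mouse and a line at the median. Klf9 is the member whose PV and WT points do not overlap in epithelium, and in stroma 1 PV mouse at 125 CPM lies among the WT mice.

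The medians over single regions did not separate the mice as the sums did. In epithelium the mouse medians of Klf9 ran from 7.22 to 22.3 Q3-normalised counts in PV and from 19.8 to 40.4 in WT, and here PV3 at 22.3 lay above WT3 at 19.8, so the separation of the sums was lost. In stroma they ran from 21.6 to 77.4 in PV and from 80.0 to 133 in WT, so all 6 PV medians lay below the 7 WT medians on this scale. Klf9 exceeded the detection limit set by the negative probes in 19 of 31 PV epithelium regions (61.3%) and in 28 of 29 WT ones (96.6%), and in all stroma regions of both genotypes. Regions of 1 mouse differed by an SD of 0.71 (log2) in epithelium and 0.43 in stroma, against 0.40 and 0.48 between mouse means within a genotype.

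**Figure D2:**
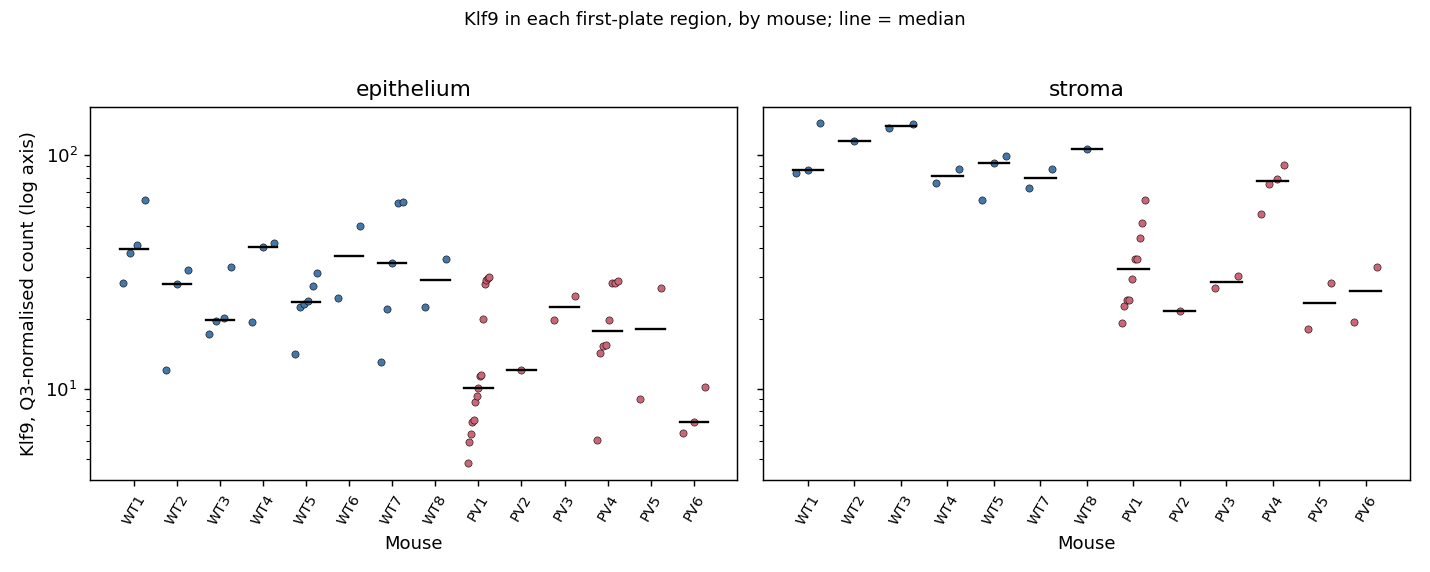
Klf9 in each first-plate region as Q3-normalised counts (log axis), grouped by mouse, WT in blue and PV in red, with a line at the median of the mouse. In stroma the 4 regions of PV4 stand at 56.2 to 91.3, above the medians of the other PV mice.

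A second gene was lower in PV epithelium. Klf15 measured 11.3 CPM in PV6, 12.8 in PV1, 13.3 in PV5, 15.0 in PV2, 16.2 in PV4 and 17.2 in PV3. The WT mice spread from 12.3 to 44.6 CPM with a median of 32.9. All 6 PV mice lay below the WT median, in a band far narrower than that of WT, but 5 of them were within the WT range, because WT3, the oldest WT mouse, measured 12.3 CPM. The fitted level was 2.14-fold lower (log2 difference -1.10 ± 0.28 SE; exact permutation p = 0.00766; edgeR adjusted p 0.364, DESeq2 adjusted p 0.123). Klf15 was near the floor of the assay here: the negative probes stood at 4.41 to 15.7 CPM in PV epithelium and 4.59 to 7.87 in WT, and 10 of 31 PV regions and 20 of 29 WT regions exceeded the detection limit. With the negative-probe level taken off each region, the log2 difference was -1.55.

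In stroma Klf15 measured 31.9 to 142 CPM in PV, with a median of 42.4, and 37.9 to 76.2 in WT, with a median of 49.5. The fitted log2 difference was -0.21, with an interval from -0.77 to 0.35, and the highest value, 142 CPM, belonged to the thin library of PV2, where it rested on 14 counts. The log2 difference was -0.41 without PV2, -0.45 with mice of at least 2 regions (unadjusted p 0.0488, edgeR adjusted p 1), -0.46 with age as a covariate and -0.55 with both plates. The difference between the compartments' genotype effects was -0.64 ± 0.32 (unadjusted p 0.0585, edgeR adjusted p 0.714).

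The other Sin3A-binding relatives gave no such pattern. Klf13, the closest relative of Klf9, measured 30.0 to 69.3 CPM in PV epithelium and 35.8 to 59.7 in WT, with medians of 47.3 and 47.9. In stroma its medians were 46.2 in PV and 45.4 in WT. The fitted log2 differences were 0.07 in epithelium and 0.16 in stroma, with intervals of -0.29 to 0.42 and -0.30 to 0.61, so a 2-fold change in either direction lay outside both intervals. Klf10, induced early by TGF-β, measured 22.6 to 111 CPM in PV epithelium (median 53.4) and 24.5 to 50.4 in WT (median 36.7). Of the 6 PV mice 5 exceeded the WT median and 4 exceeded every WT mouse, while PV6 was the lowest of all 14 (log2 difference 0.61 ± 0.28 SE; exact permutation p = 0.0826; edgeR adjusted p 0.595). Without PV5, at 111 CPM, the log2 difference was 0.31. In stroma the medians of Klf10 were 54.6 in PV and 50.9 in WT.

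Klf3, the CtBP-binding member, measured 118 to 273 CPM in PV epithelium and 79.4 to 241 in WT, and 5 of 6 PV mice exceeded the WT median of 120, with PV4 at 118 (log2 difference 0.40 ± 0.30 SE; exact permutation p = 0.20). In stroma it measured 45.5 to 123 CPM in PV and 49.8 to 159 in WT, with a log2 difference of -0.28. Neither difference passed a test.

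Among the activators, Klf6 and Klf4 had the largest differences, both in epithelium and both upward. Klf6, which responds to injury and to growth signals, measured 60.1 CPM in PV2, 81.1 in PV6, 98.1 in PV3, 103 in PV4, 127 in PV5 and 130 in PV1. The WT mice ran from 43.1 to 109 CPM with a median of 55.9. All 6 PV mice exceeded the WT median, and WT3 was the 1 WT mouse above 75.5 CPM (log2 difference 0.71 ± 0.21 SE; exact permutation p = 0.0157; edgeR adjusted p 0.417). In stroma Klf6 had medians of 102 CPM in PV and 95.8 in WT and a log2 difference of 0.15.

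Klf4, a driver of barrier and squamous differentiation in stratified epithelia, varied most between mice. It measured 42.4 CPM in PV4, 100 in PV3, 180 in PV2, 244 in PV1, 381 in PV6 and 564 in PV5, and 22.9 to 316 CPM in WT with a median of 62.6. The fitted level was 2.68-fold higher in PV (log2 difference 1.42 ± 0.60 SE; exact permutation p = 0.0543; edgeR adjusted p 0.575). The mice overlapped widely: PV4 was below the WT median and WT5, at 316 CPM, exceeded 4 PV mice. Regions of 1 mouse differed by an SD of 0.96 (log2). Without PV5 the log2 difference was 1.01, and without WT5 it was 2.04. In stroma the medians of Klf4 were 56.9 CPM in PV and 58.1 in WT.

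Klf5, which maintains proliferating epithelium, measured 35.6 to 60.4 CPM in PV epithelium and 31.9 to 50.2 in WT (exact permutation p = 0.165). Klf2, a gene of resting endothelium, measured 15.0 to 38.8 CPM in PV epithelium and 15.5 to 24.9 in WT (exact permutation p = 0.792). In stroma Klf5 was largely at the floor, above the detection limit in 8 of 35 regions, and Klf2 measured 57.6 to 99.5 CPM in PV and 41.3 to 159 in WT. No difference of these 2 genes between genotypes exceeded the spread between mice.

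Over the 9 members, none was called between PV and WT by edgeR at an adjusted p under 0.05 in epithelium or in stroma, and neither was any of the 14881 genes (0% in both). DESeq2 called 28 genes in epithelium and 2 in stroma, Klf9 among them in both. At an unadjusted p under 0.05, 2 members were lower in PV epithelium (Klf9 and Klf15) where 3.8% of all genes were, and 3 were higher (Klf4, Klf6 and Klf10) where 4.42% of all genes were. In stroma 1 member was lower, Klf9, against 1.4% of all genes, and none was higher, against 2.12%. The median log2 difference of the 9 was 0.20 in epithelium and -0.21 in stroma, against -0.01 and 0.01 over all genes. Of the 8 relatives, 7 had a fitted difference above 0 in epithelium and 1, Klf15, below it, and in stroma 4 lay above 0 and 4 below. The exact permutation p-values of the relatives in stroma were all 0.344 or higher.

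**Figure D3:**
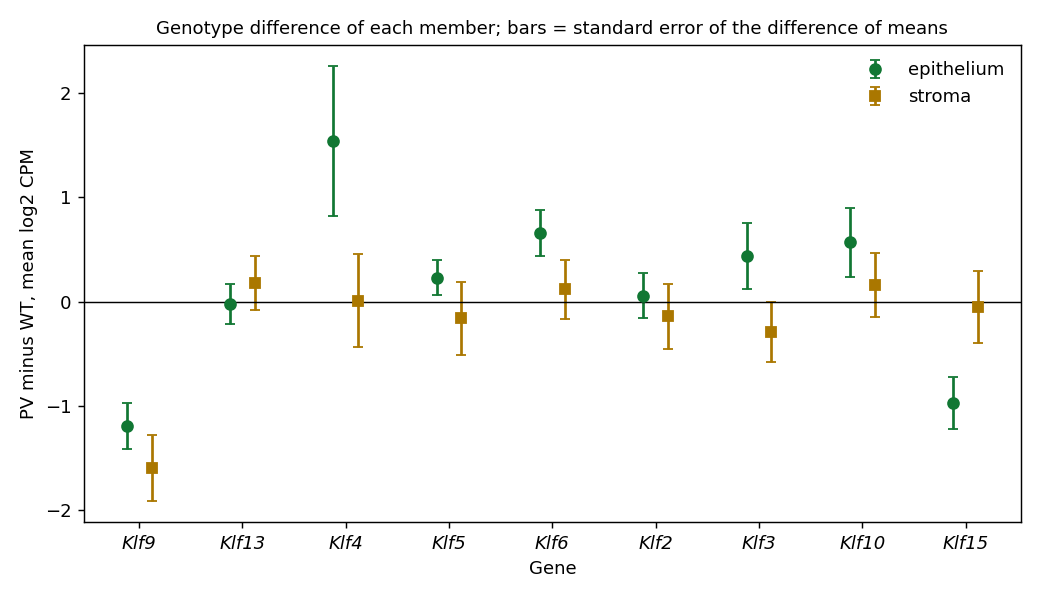
Difference of the mean log2 CPM between PV and WT mice for each member in epithelium (circles) and stroma (squares), with the standard error of the difference of means. Klf9 lies at -1.19 in epithelium and -1.59 in stroma, and Klf15 at -0.97 in epithelium and -0.05 in stroma.

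Of 17 other genes of the Klf and Sp families, 12 passed the detection filter, and none had an unadjusted p under 0.05 between genotypes in either compartment. Their median log2 difference was -0.03 in epithelium and 0.09 in stroma. The lowest p among them in epithelium was that of Klf7, a relative of Klf6 (log2 difference 0.54 ± 0.29 SE, unadjusted p 0.085). Klf11, which also binds Sin3A, had log2 differences of 0.32 in epithelium and 0.20 in stroma.

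Thra, the gene that carries the mutation, measured 38.4 to 180 CPM in PV epithelium and 35.7 to 55.2 in WT, and 84.2 to 345 CPM in PV stroma against 52.0 to 117 in WT (log2 differences 0.62 ± 0.28 and 0.99 ± 0.28 SE; exact permutation p = 0.0669 and 0.0152). The probe counts RNA of both alleles and of all transcripts that it matches, so it did not check the genotype.

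Some genes of other cell types and responses differed between genotypes at an unadjusted p under 0.05, and their levels stand beside the Klf values. None of the 14881 genes was called by edgeR after adjustment in either compartment. At the unadjusted level 3.8% of all genes were lower and 4.42% higher in PV epithelium, and 1.4% and 2.12% in PV stroma. In epithelium the fibroblast gene Dcn was lower in every PV mouse than in every WT mouse, 34.5 to 104 against 115 to 203 CPM. Dcn in epithelium was 3.6% to 10.2% of its stroma level in the same PV mouse and 5.99% to 18.9% in WT. In WT, Klf9 and Klf15 were higher in stroma, with epithelial log2 differences between genotypes of -1.09 and -1.10. Klf2, Klf6 and Klf10 were also higher in WT stroma, with epithelial log2 differences of 0.15, 0.71 and 0.61. The part of stroma RNA in these differences was not tested beyond the values given here. The summed fibroblast list overlapped between genotypes, 466 to 1760 CPM in PV and 719 to 2130 in WT, with 3 of 10 genes lower at an unadjusted p under 0.05 (Dcn, Pdgfra and Mfap5), and in stroma 1 of the 10, Fbln1, was higher in PV (log2 difference 1.06). When the stroma value of the same mouse at its Dcn ratio was taken off, Klf9 in epithelium ran from 11.9 to 25.4 CPM in 6 PV mice and from 20.2 to 47.2 in 7 WT mice, which overlapped (exact permutation p = 0.00932), and Klf15 from 0.6 to 13.8 and 9.33 to 35.6 CPM (p = 0.00932, exact permutation). With the fibroblast list as a covariate the log2 difference of Klf9 was -1.15 and that of Klf15 was -1.05. Fewer cells of a type and less RNA per cell cannot be told apart in summed regions.

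Immediate early genes, which respond within minutes to handling and growth signals, were on the high side in PV. Of 12, 2 were higher in PV epithelium at an unadjusted p under 0.05 (Fos, log2 difference 1.18, and Junb, 0.82), against 4.42% of all genes. In PV stroma 4 were higher at that level (Junb, 1.19, Zfp36, 1.07, Btg2 and Egr1), against 2.12% of all genes. The summed list measured 599 to 1540 CPM in PV epithelium and 463 to 953 in WT. With this list as a covariate the log2 difference of Klf6 in epithelium was 0.46 and that of Klf10 was 0.19. That of Klf15 was -0.80, that of Klf9 -1.09 and that of Klf4 1.34. Because the list itself was on the high side in PV, this covariate and genotype overlapped. The part of handling or growth signals in the Klf differences was not tested. Among 10 glucocorticoid-responsive genes kept, which do not include Klf9 or Klf15, 2 were lower in PV epithelium at an unadjusted p under 0.05. They were Zbtb16 (log2 difference -1.30) and Sgk1 (-1.70), and none was lower in stroma. Of all genes, 3.8% were lower in PV epithelium at that level and 1.4% in stroma. The median log2 difference of that list was -0.22 in epithelium and -0.24 in stroma.

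Of 14 squamous genes 4 were kept, and 3 of them were higher in PV epithelium at an unadjusted p under 0.05 (Krt15, log2 difference 1.96, Sprr1a, 1.24, and Krt13). At that level 4.42% of all genes were higher and 3.8% lower in PV epithelium. In PV stroma 2.12% were higher and 1.4% lower, and these shares apply to each list below. The summed squamous list measured 48.9 to 344 CPM in PV and 40.4 to 76.6 in WT, beside Klf4 at 42.4 to 564 and 22.9 to 316 CPM. That WT sum covers 4 genes, and the negative probes stood at 4.59 to 7.87 CPM in WT epithelium. The detection filter took regions of both genotypes together, so a squamous gene could pass through PV regions alone. The count of 3 among the 4 kept is therefore a description only. Of 10 columnar genes, Krt8 and Cldn7 were higher in PV epithelium at an unadjusted p under 0.05, with log2 differences of 0.61 each, and Cldn7 was higher in stroma too (0.69). Of 12 uterine steroid genes, Hoxa11 (-1.04), Hoxa10 (-0.99) and Ihh (-0.71) were lower in epithelium at an unadjusted p under 0.05, and in stroma Wnt4 was higher (1.20) and Greb1 lower (-0.80). Of 10 lymphocyte and plasma cell genes 7 were kept, with a median log2 difference of -0.23 in epithelium and 0.17 in stroma. At an unadjusted p under 0.05, 1 of the 7 was higher in PV epithelium and 2 in PV stroma. These were the plasma cell gene Jchain in both compartments (1.90 and 3.15) and Mzb1, of the same cells, in stroma (1.03). With Jchain as a covariate the log2 difference of Klf9 in stroma was -0.96 ± 0.32 SE. Because Jchain itself differed between genotypes, plasma cell content and genotype cannot be told apart in that fit. Of 10 endothelial genes 3 were lower in epithelium at that level, among them Thbd (-0.65) and Emcn (-0.57), and 2 were higher in stroma, Kdr (0.81) and Vwf (0.82), beside Klf2 log2 differences of 0.15 and -0.29. Of 7 smooth muscle genes 2 were higher in PV stroma, Acta2 (1.03) and Myh11 (0.84), and none in epithelium. No macrophage gene of 8 reached that level in either compartment. The part of these cell types in the Klf differences was not tested beyond the covariate values given.

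The second question was where in the uterus each member was expressed, compared within the 13 mice that had both compartments. In WT, edgeR called 7 of 9 members between compartments. The 5 higher in stroma were Klf2 (4.42-fold), Klf9 (3.13-fold), Klf15 (1.89-fold), Klf6 (1.55-fold) and Klf10 (1.43-fold), where 26.8% of all genes were higher in stroma. The 2 higher in epithelium were Klf5 (2.81-fold) and Klf3 (1.31-fold), where 22.1% of all genes were higher in epithelium. Klf2, Klf9, Klf15 and Klf10 were higher in stroma in 7 of 7 WT mice, and Klf5 in epithelium in 7 of 7 (exact sign-flip permutation p = 0.0156 for each, the smallest possible). The Klf3 call was marginal, with an adjusted p of 0.0497 and 5 of 7 mice in its direction, and it was lost in 8 of the 13 fits that left out 1 mouse.

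In PV mice edgeR called 6 of 9 members between compartments. Klf2 (3.42-fold), Klf15 (2.94-fold) and Klf9 (2.63-fold) were again higher in stroma, where 26.7% of all genes were, and Klf5 (3.89-fold), Klf4 (2.85-fold) and Klf3 (2.18-fold) higher in epithelium, where 22.7% were. All 6 PV mice showed the direction for each of these 6 genes (exact sign-flip permutation p = 0.0312, the smallest possible). Klf4 was called in PV and not in WT, with 41.3 CPM in epithelium and 58.1 in stroma at the WT medians and 212 and 56.9 at the PV medians. Klf6 and Klf10 were called in WT and not in PV, with folds of epithelium over stroma of 0.952 and 0.992 in PV.

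The tests of these differences themselves did not pass. No member and no gene was called for genotype by compartment (0%) by edgeR, and DESeq2 called 1 gene, which was not a member. At an unadjusted p under 0.05, a level that 7.16% of all genes met, stood Klf4 (PV effect minus WT effect 1.53 ± 0.44 SE, p 0.00283), Klf3 (0.73 ± 0.24, p 0.00725) and Klf6 (0.56 ± 0.23, p 0.0277), with edgeR adjusted p-values of 0.579, 0.579 and 0.657. For Klf9 the term was 0.25 ± 0.29 SE (edgeR unadjusted p 0.399). A difference between its compartment gaps in the 2 genotypes was thus not resolved, and equal gaps were not shown. Klf13 had 1.10-fold and 1.07-fold more in epithelium in WT and PV and was called in neither.

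**Figure D4:**
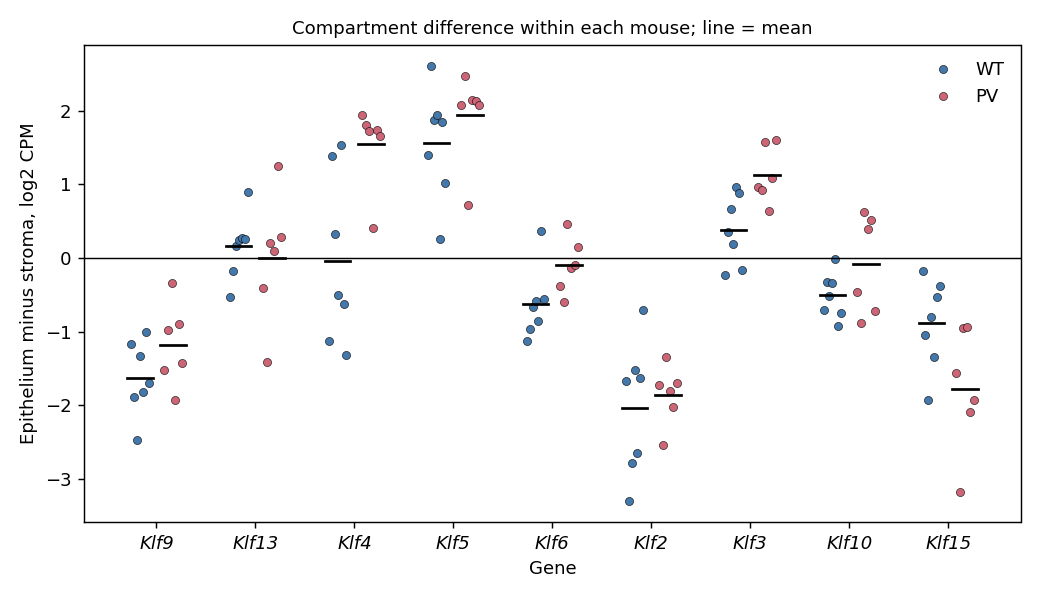
Epithelium minus stroma difference of log2 CPM within each of 7 WT and 6 PV mice for the 9 members, with a line at the mean. Klf9, Klf2 and Klf15 lie below 0 in all 13 mice and Klf5 above 0 in all 13, while Klf4 lies above 0 in 6 of 6 PV mice and in 3 of 7 WT mice.

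Of the 12 other family genes kept, 6 were higher in WT stroma (Klf7, Klf8, Klf11, Klf12, Klf17 and Sp3), where 26.8% of all genes were. In WT epithelium 1, Sp5, was higher, where 22.1% of all genes were. The largest stroma folds were those of Klf7 (2.38-fold) and Klf11 (1.82-fold), and Sp5 was 2.02-fold higher in epithelium. In PV 7 were higher in stroma, against 26.7% of all genes, again with Klf7 (1.98-fold) and Klf11 (1.54-fold). Sp5 was 2.87-fold higher in PV epithelium, where 22.7% of all genes were higher.

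Age was unequal between genotypes: 4 PV and 2 WT mice were under 5 months, and 2 PV and 6 WT mice were 5 months or older. In epithelium Klf9 measured 15.0 to 32.3 CPM in the 4 younger PV mice against 54.6 and 55.8 in the 2 younger WT mice, and 14.0 and 29.1 in the 2 older PV mice against 35.6 to 64.9 in the 6 older WT mice. The log2 differences were -1.11 ± 0.32 and -1.24 ± 0.34 SE. In stroma they were -0.77 ± 0.36 under 5 months and -2.09 ± 0.41 from 5 months, where 36.9 and 38.8 CPM in PV faced 129 to 201 in WT. PV4, at 4.0 months, was among the younger mice. With age in months as a covariate the epithelial log2 differences were -1.25 for Klf9 and -1.41 for Klf15, and edgeR called both (adjusted p 0.0402 and 0.0347) among 10 genes. No other member was called there, with Klf3 at 0.82, Klf6 at 0.88 and Klf4 at 1.76 (edgeR adjusted p 0.363, 0.18 and 0.461). In stroma the same covariate gave Klf9 a log2 difference of -1.21 with an edgeR adjusted p of 0.31, and no gene was called.

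Genotype by age class was called for no member and no gene in either compartment (0% in both) by edgeR. DESeq2 called no gene in epithelium and 1 in stroma, which was not a member. In epithelium Klf10 alone had an unadjusted p under 0.05 (0.00644, 3.61% of all genes), with log2 differences of 1.46 under 5 months and -0.18 from 5 months. In stroma 4 members did, where 5.52% of all genes did: Klf6 (p 0.00376), Klf10 (p 0.00777), Klf3 (p 0.0137) and Klf9 (p 0.0259), each with an edgeR adjusted p of 0.886. Klf6, Klf10 and Klf3 had log2 differences of 0.95, 0.70 and 0.54 in younger mice and -0.66, -0.66 and -0.81 in older mice, so their sign turned, while Klf9 was lower in PV in both classes. Each of these values rests on 2 mice in 1 genotype.

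**Figure D5:**
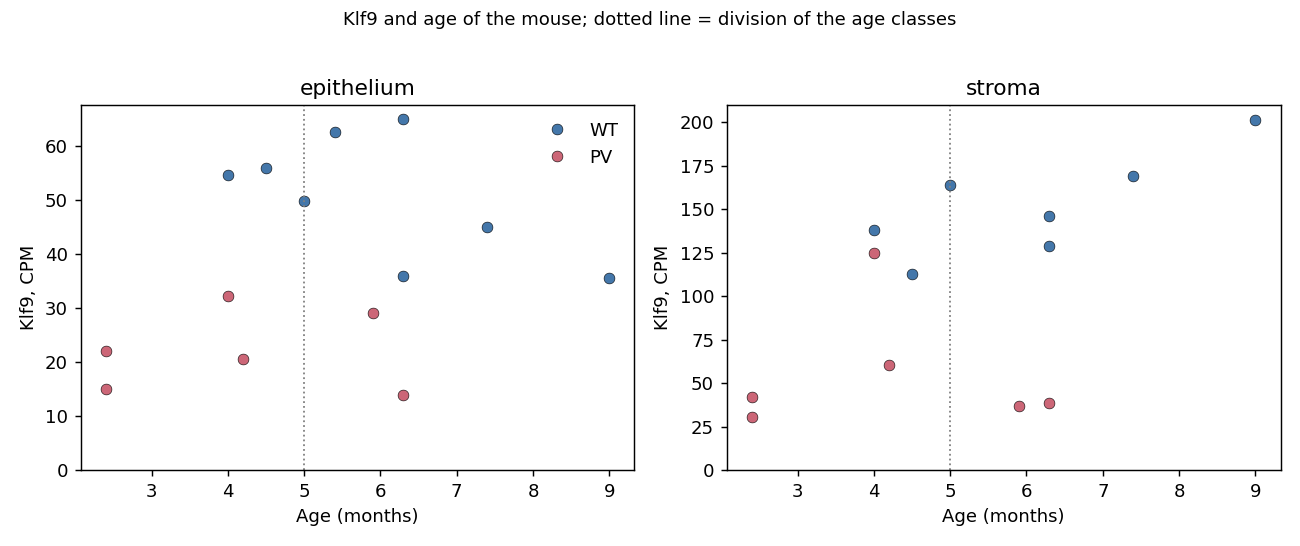
Klf9 in CPM against the age of the mouse in months, WT in blue and PV in red, in epithelium (left) and stroma (right), with a dotted line at 5 months. In stroma the PV mice of 5.9 and 6.3 months measure 36.9 and 38.8 CPM, and the PV mouse nearest to WT is the one of 4.0 months at 125 CPM.

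Whether relatives tracked Klf9 from mouse to mouse was asked within each genotype and compartment, in 32 correlations. None passed after Benjamini-Hochberg adjustment over the 32 (lowest adjusted p 0.267, exact permutation of pairings). Of the 5 with an unadjusted p under 0.05, all were in WT. In WT epithelium (n = 8) the correlations with Klf9 were positive for Klf15 (r = 0.78, exact permutation p = 0.0234; rho = 0.60, p = 0.132) and negative for Klf3 (r = -0.78, exact permutation p = 0.0307; rho = -0.79, p = 0.0279) and Klf4 (r = -0.72, exact permutation p = 0.0484; rho = -0.62, p = 0.115). Without the 2 mice farthest from the Klf9 median these were 0.55, -0.44 and -0.32, so they rested in part on those mice.

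In WT stroma (n = 7) Klf3 (r = 0.84, exact permutation p = 0.0246; rho = 0.71, p = 0.0881) and Klf6 (r = 0.79, exact permutation p = 0.0333; rho = 0.68, p = 0.11) had positive correlations with Klf9, with r of 0.53 and 0.13 once the 2 farthest mice were left out. The sign for Klf3 differed between the compartments of WT mice, a difference that was not tested. Within the 6 PV mice the strongest relations were Klf15 (r = 0.73, exact permutation p = 0.117; rho = 0.77, p = 0.103) and Klf2 (r = 0.72, exact permutation p = 0.0861; rho = 0.77, p = 0.103) in epithelium. In PV2 epithelium Klf9, Klf15 and Klf2 each rested on 1 count, at 15.0 CPM beside negative probes at 15.7 CPM. Klf13 had r between -0.25 and 0.14 in the 4 groups.

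Over the 27 sums, after each compartment's mean was taken off, the genes whose log2 CPM was most like that of Klf9 among 14880 included Tmem19 (r = 0.78), Spsb3 (0.77), Ramp1 (0.75) and Aspg (0.73). The most opposite were Sema3a (-0.78), Rhbdf1 (-0.76), Fbxw9 (-0.74), Pard6b (-0.71) and Tgfa (-0.71). These are descriptions across sums that share mice and carry the genotype difference: with genotype means also removed, Tmem19 stood at 0.55, Spsb3 at 0.64, Sema3a at -0.54 and Fbxw9 at -0.71. Among the members the values before that removal ran from -0.47 for Klf4 to 0.29 for Klf15, and Klf15, the nearest member, ranked 2226 of 14880. With genotype means also removed, Klf15 stood at -0.06, and the members ran from -0.47 for Klf4 to 0.29 for Klf6.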

How the data were processed

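Tissue sections of mouse uterus were profiled with the GeoMx whole-transcriptome probe panel. The deposited count table holds expected counts of the authors' pipeline for 19962 targets in 189 regions, 95 of them on the first plate, and per the file headers the GeoMx pipeline was version 2.3.3.10. The authors replaced 0 by 1 in it. The deposited normalised table holds signal values, which the authors made by dividing each region by its upper quartile (Q3), for 14881 genes kept by a detection filter. The submitters' processing notes name R 4.1.2, Space Ranger and mm10, and the role of Space Ranger was not stated. Per-region files give probe counts with true zeros. Counts are not independent molecules beyond the pipeline's own collapsing of reads, with a median of 8.99 aligned reads per count, so intervals cover the spread between mice.

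Members and lists were chosen with earlier results of these data known. Labels give 14 animals, while the design text gives 13. Ages carry no unit and were read as months. First-plate counts were summed per mouse and compartment, rounded, scaled by TMM and tested with the quasi-likelihood test of edgeR 4.0.16 run in R 4.3.3. Its p-values are two-sided and were adjusted by Benjamini-Hochberg over the 14881 genes, with calls made under 0.05. Sums ran from 61691 to 13492532 counts. Genotype was fitted within each compartment, compartments with the mouse as a block, and age classes as a difference of genotype effects. Standard errors are the log2 difference over the root of the F statistic. CPM used 1 scaling over 27 sums, and log2 CPM a prior count of 2. Single values were tested by exact permutation over mice, which compares 18 genotype differences without adjustment. Named genes were the members, in each list up to 2 genes with the lowest unadjusted p under 0.05, 4 compartment markers, Thra, called family genes, and the 5 most and 5 least like Klf9. Some genes under this rule are not reported here. Mfap5, Btg2, Egr1, Krt13, Ihh, Klf7 and Klf11 were named after their values were seen. Regions of a mouse are not replicates. Where nothing in the labels says otherwise, animals were taken as separate.

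Alternatives were DESeq2 1.42.0, limma 3.58.1 on mean log2(Q3 + 1) values, upper-quartile scaling, other gene filters, true zeros, negative-probe subtraction, both plates, mice with at least 2 regions, age as a covariate, no block and each mouse left out. Added after seeing the data were the fibroblast, immediate early and Jchain covariates and the subtraction at the Dcn ratio. The scripts were tested on simulated data.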

Additional observations from a re-analysis of the deposited data

How the results depend on the processing

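The log2 difference of Klf9 between PV and WT was negative in every fit run. In epithelium it lay between -0.65 (regions of both plates, where 40 second-plate regions went against their label) and -1.37 (negative-probe level subtracted). Leaving out 1 mouse gave -1.27 to -0.97. DESeq2 gave -1.07 and age as a covariate -1.25, both called. Taking off the stroma value at the Dcn ratio gave -0.83 with an edgeR adjusted p of 0.709. In stroma it lay between -0.96 (Jchain as a covariate) and -1.64 (limma on log2 Q3 values), and leaving out 1 mouse gave -1.76 to -1.20. DESeq2 gave -1.32, called, and the fit without PV4 gave -1.76, called. The count of members called between genotypes, 0 in the fits reported, was 1 with DESeq2 in each compartment, 2 with age as a covariate in epithelium, and 0 to 1 in stroma over the mice left out.

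In PV, regions of both plates left 0 of 9 members called between epithelium and stroma, and 0 of all genes, against 6 on the first plate. Other counts of members stayed within 1.5 times of those reported. For the mouse block, fitting without it left the counts between compartments within that range too. The WT calls between compartments were lost for Klf3 with upper-quartile scaling, limma, true zeros, negative-probe subtraction and without some mice, for both Klf3 and Klf10 without the block (5 of 9 called against 7), and for Klf10 with mice of at least 2 regions. The cause of these changes was not tested. Depth limits the low values most: PV2 had 61691 counts in epithelium, and Klf15 and Klf2 in epithelium and Klf5 in stroma were near the negative probes.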
